A study of Mus musculus with 45 samples.

Results

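The genes described here encode the proteasome, its interferon-inducible immunoproteasome form, and the activators, inhibitor and assembly chaperones that work with it. They are the protein-coding genes whose mouse symbol opens with Psma, Psmb, Psmc, Psmd, Psme, Psmf or Psmg and a number. Of 50 such genes in the tables, 48 passed a filter of over 5 reads in 6 or more of the 45 libraries and were tested among 14020 genes in all, 12544 of them protein-coding. Psma8, a core subunit of germ cells, reached at most 9 reads, and Psmb11, a core subunit of the thymic cortex, at most 21 reads, and these 2 genes did not pass. The 48 comprise 31 constitutive subunits of the core and the regulatory particle, 5 immunoproteasome and PA28 genes (Psmb8, Psmb9, Psmb10, Psme1 and Psme2), 7 assembly chaperones, the activators Psme3 and Psme4, the inhibitor Psmf1, Psme2b, and Psmc3ip, which shares the symbol pattern but encodes a partner of meiotic recombinases and no subunit. Psme2b is a near copy of Psme2 without introns, so reads of these genes can be divided between them.

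Each library came from tuft cells of the small intestine of 1 mouse, sorted as EpCAM+ CD45+ Siglec-F+ cells and sequenced in bulk with the Smart-seq2 protocol, which does not keep the strand. All mice were male C57BL/6J that arrived at 5 weeks of age, were acclimatized for 1 week, were housed 4 to a cage at 30 °C, and then received either a reference diet with 10% fat (RFD) or a lard-rich diet with 60% fat (HFD). The titles name 2 sets, STF with 11 RFD and 11 HFD libraries and LTF with 11 RFD and 12 HFD libraries. The feeding lasted 9 or 22 weeks in the study, whereas the sample labels give 9 weeks for every library, so LTF was taken as the longer feeding, and feeding time and set cannot be told apart.

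Libraries held 189340 to 4690213 reads on genes. In 3 of them under 7000 genes had more than 5 reads, namely STF RFD mouse 40 with 3041 genes, STF HFD mouse 50 with 5885 and LTF RFD mouse 3 with 6128, against 8313 to 12308 genes in the other libraries. In 4 HFD libraries over 10% of the reads lay on 5 Paneth cell markers, namely STF mice 8, 70 and 80 with 17.1, 23.1 and 31.8% and LTF mouse 7 with 13.1%. All 14 tuft markers tested were detected in both sets, with summed levels of 3120 to 22517 CPM on RFD and 317 to 20555 on HFD in STF, and 3914 to 26486 on RFD and 1163 to 23527 on HFD in LTF. CPM stands for counts scaled to a library of common size by the TMM method. Mouse numbers in the titles fall into 3 series (1 to 8, multiples of 10, and 21 to 64), which the labels do not call a batch, and values within them are given in that order. STF RFD mouse 84 and LTF HFD mouse 65 fall in no series and are in none of those values. Per the methods of the study, each feeding period ended over 3 consecutive days, with a cage of each group per day. The titles name no cage or day, so the tests treat cage mates as independent.

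The proteasome is the barrel-shaped protease that degrades proteins tagged with ubiquitin. Its core has outer alpha and inner beta rings, with the proteolytic sites in the beta subunits encoded by Psmb6, Psmb7 and Psmb5, and a regulatory particle of ATPases and non-ATPases unfolds substrates at its ends. Interferon induces Psmb9, Psmb10 and Psmb8, whose products take the places of those 3 subunits in newly built particles, and the PA28 activator encoded by Psme1 and Psme2, and the peptides made in this way are carried by the TAP transporter to MHC class I molecules. Tuft cells are chemosensory cells of the gut epithelium.

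Psmb8 and Psmb9 lie in the MHC region of chromosome 17, on either side of Tap1. In GRCm38 with the GENCODE M21 annotation, Psmb9 spans chr17:34181987-34187764 on the minus strand, Tap1 spans chr17:34187553-34197225 on the plus strand, and Psmb8 spans chr17:34197721-34201454 on the plus strand. The 5′ ends of Psmb9 and Tap1 overlap by 212 bases, and reads from there cannot be assigned to a strand. Psmb10 lies at chr8:105935735-105938444, and Psme1 (chr14:55578123-55581529) and Psme2 (chr14:55587441-55591113) are near neighbours on opposite strands. Of the constitutive counterparts, Psmb5 lies at chr14:54614119-54618022, Psmb6 at chr11:70525367-70527858 and Psmb7 at chr2:38588036-38644087.

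The stretches of 200 bases before the RefSeq start sites (GRCm38.p6) of the inducible subunit gene Psmb9 and of the constitutive genes Psmb5 and Psmb6 are shown because the results set inducible beside constitutive subunits and all 3 stretches hold the same letter pattern. Capitals mark this pattern, TGANNNNGC, that of the antioxidant response element (ARE). The Psmb9 stretch is chr17:34187331-34187530 on the minus strand, that of Psmb5 is chr14:54617996-54618195 on the minus strand, and that of Psmb6 is chr11:70525157-70525356 on the plus strand, each written 5′ to 3′ along its gene. The RefSeq starts of Psmb9 and Psmb5 lie downstream of the GENCODE M21 5′ ends given above. The Psmb9 stretch therefore lies within the GENCODE span of its gene, and the Psmb5 stretch overlaps its own in part.
Psmb9: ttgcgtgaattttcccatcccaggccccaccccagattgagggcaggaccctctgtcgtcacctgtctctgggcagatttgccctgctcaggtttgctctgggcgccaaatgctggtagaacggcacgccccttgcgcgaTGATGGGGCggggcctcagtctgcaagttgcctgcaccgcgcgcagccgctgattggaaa
Psmb5: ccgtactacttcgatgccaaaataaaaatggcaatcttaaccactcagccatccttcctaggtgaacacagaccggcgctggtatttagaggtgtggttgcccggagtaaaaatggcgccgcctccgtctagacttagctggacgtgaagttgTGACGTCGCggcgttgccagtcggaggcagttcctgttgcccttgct
Psmb6: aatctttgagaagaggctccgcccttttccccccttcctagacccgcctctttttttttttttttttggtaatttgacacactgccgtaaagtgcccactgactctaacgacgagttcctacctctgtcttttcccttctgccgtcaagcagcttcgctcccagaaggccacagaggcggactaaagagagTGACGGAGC

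Both strands were searched for letter patterns in the stretches of 41 members with a RefSeq start, 25 of them constitutive subunits. The interferon-stimulated response element was searched as GAAA, 2 further bases and GAAA. It was found in 3 members, against 2.27% of all 32851 stretches of the same length. These were the constitutive subunit genes Psmb3 and Psmd4 and the chaperone gene Psmd9. An NF-kB consensus was found in 6 members, 5 of them constitutive, and in 6.07% of all stretches. The ARE pattern was found in 13 of the 41 members, 7 of them constitutive subunits, and in 29.56% of all stretches. Among these members were Psmb9 at 60 bases before the start (position -60), Psmb5 at -47, Psmb6 at -9 and Psme2 at -67. The stretches of the inducible genes Psmb8 and Psmb10 held no match to the ARE pattern. A match describes the letters in this window and no bound factor.

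On the TPM scale, which divides by transcript length and so allows genes to be compared, the median over the 45 libraries was highest for Psmb6 (414.3 TPM), Psme2 (414.2 TPM) and the alpha subunit Psma7 (394.7 TPM). The immunoproteasome subunits were also well expressed, with median levels of 199.4 TPM for Psmb10, 141.0 TPM for Psmb8 and 42.3 TPM for Psmb9, placed 6, 14 and 32 among the 48. In the regulatory particle the median level ran from 23.4 TPM for Psmd3 to 118.4 TPM for Psmd4 among the non-ATPases, and from 47.2 TPM for Psmc6 to 133.7 TPM for Psmc5 among the ATPases. Assembly chaperones were lower, from 14.1 TPM for Psmg2 to 104.8 TPM for Psmg4. The nuclear activator gene Psme3 (3.50 TPM) and the PA200 activator gene Psme4 (2.88 TPM) were the lowest of the subunits and activators. The median level of Psmb8 was 152.5 TPM on RFD and 49.0 TPM on HFD in STF, and 187.7 TPM on RFD and 127.5 TPM on HFD in LTF. For Psmb5, its constitutive counterpart, the corresponding levels were 184.6 and 148.9 TPM in STF, and 219.4 and 274.4 TPM in LTF. TPM values were not scaled by the TMM method. The STF HFD libraries include mice 8, 70 and 80, with 17.1 to 31.8% of reads on Paneth markers. A test of Psmb8 in STF with limma on log2(TPM + 1) gave a log2 fold change of -1.19 (adjusted p = 0.312).

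**Figure D1:**
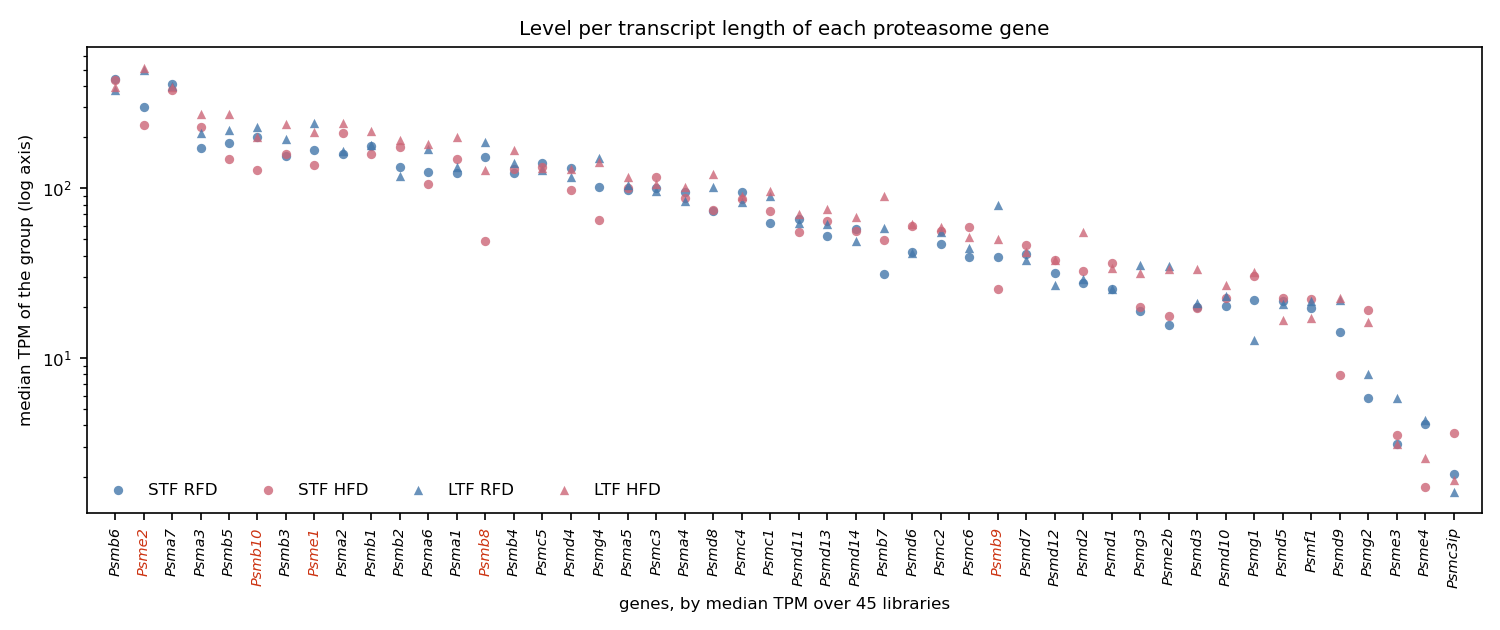
Median TPM (log axis) of each of the 48 genes over the libraries of each group, with genes ordered by their median over all 45 libraries, 1 marker for each of the 4 groups, and the 5 immunoproteasome and PA28 genes named in red. Psmb6, Psme2 and Psma7 have the highest levels over all libraries, and the Psmb8 marker for STF HFD (49.0 TPM) lies below those of the other 3 groups.

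The STF libraries show how the genes differed between the diets after the shorter feeding. Psmb8 was lower on HFD and Psmb2, a constitutive core subunit, was higher, and these were the 2 of 48 genes with an adjusted p under 0.1 (quasi-likelihood F test of edgeR, adjusted by the Benjamini-Hochberg method over all genes), a threshold that 3.32% of all 14020 genes passed (2.00% higher and 1.33% lower). At an unadjusted p under 0.05, 13 members were higher and 1 was lower, beside 18.0% of all genes (9.73% higher and 8.27% lower). The log2 fold change was above 0 for 39 of the 48, with a median of 0.23, against 47.3% above 0 and a median of -0.05 among all genes. The constitutive subunits and the immunoproteasome genes lay on opposite sides, with 30 of 31 constitutive subunits above 0 (median 0.34) and 4 of the 5 immunoproteasome and PA28 genes below 0 (median -0.39). In bulk samples, fewer cells of a type and less RNA per cell cannot be told apart.

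In the LTF libraries no member had an adjusted p under 0.1 in edgeR, a threshold that 0.792% of all genes passed (0.435% higher and 0.357% lower). At an unadjusted p under 0.05 there were 2 higher members, Psma2 and Psmg1, and 4 lower ones, Psmb8, Psmb9, Psmb10 and Psme1, beside 10.3% of all genes (4.69% higher and 5.61% lower). DESeq2 placed 1 member past the threshold (Psmb9, lower), and limma, with or without voom weights, placed 0. The constitutive subunits again lay mostly above 0 (28 of 31, median 0.23), and all 5 immunoproteasome and PA28 genes lay below 0 (median -0.36), against 47.9% above 0 and a median of -0.03 among all genes. The constitutive median was 0.11 without RFD mouse 3, a library in which 13 of the 48 members had no read, and 0.36 without RFD mouse 1. The difference between the sets was tested as an interaction of diet and set over all 45 libraries, where 0 members passed an adjusted p under 0.1 in edgeR, DESeq2 and limma, as did 0.00% of all genes in edgeR. At an unadjusted p under 0.05 the edgeR interaction held 0 members and 3.22% of all genes (1.94% higher and 1.28% lower).

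**Figure D2:**
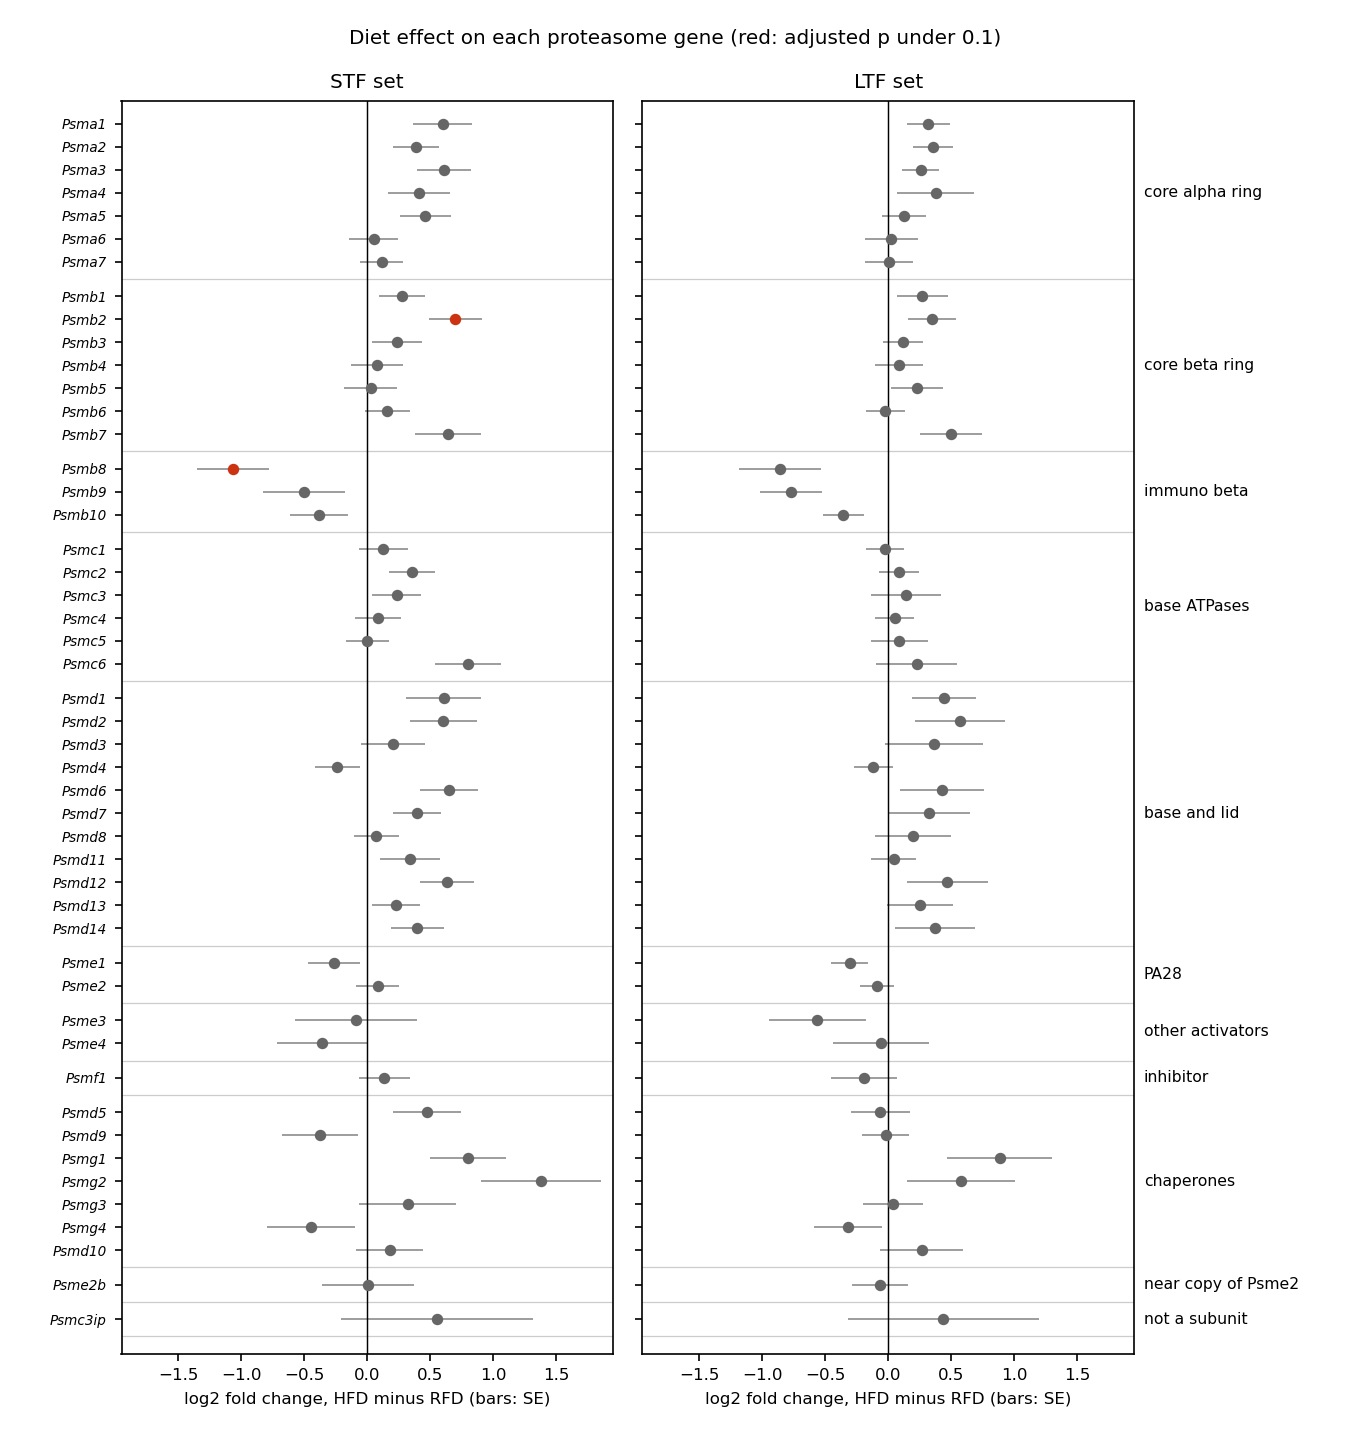
Log2 fold change of HFD minus RFD (x axis) for each of the 48 genes, with bars for the standard error, in the STF set (left) and the LTF set (right), with genes grouped by role and red points for an adjusted p under 0.1. Psmb8 and Psmb9 are among the genes left of 0 in both panels, and most alpha ring, beta ring and regulatory particle genes lie right of 0.

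Psmb8 encodes the immunoproteasome subunit with chymotrypsin-like activity. In STF it ranged from 50.9 to 262.4 CPM on RFD with a median of 174.0, and from 29.1 to 200.5 CPM on HFD with a median of 71.0. The groups overlapped, but 10 of 11 HFD libraries lay below the RFD median and 4 lay below every RFD library. Psmb8 fell by 1.06 on the log2 scale (SE 0.29, edgeR adjusted p = 0.0662), a ratio of HFD to RFD of 0.478. Within the number series the log2 differences were -1.54, -0.77 and -0.80. Leaving out 1 library at a time gave -1.29 to -0.98 and kept the adjusted p under 0.1 in 11 of 22 cases. It was lost without RFD mouse 1, 3, 21, 23, 24 or 84, or without HFD mouse 6, 8, 50, 70 or 80, with an adjusted p of at most 0.136.

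In LTF, Psmb8 ranged from 13.5 to 520.0 CPM on RFD with a median of 239.3, and from 45.1 to 230.0 CPM on HFD with a median of 137.5. All 12 HFD libraries lay below the RFD median and 7 RFD libraries lay above every HFD library, but the lowest value of all was RFD mouse 3, the library with 6128 genes. The log2 fold change was -0.86 ± 0.32 (SE, edgeR adjusted p = 0.319). Over the 23 fits without 1 library it ran from -0.99 to -0.69, with an edgeR adjusted p of at most 0.536. Only the fit without RFD mouse 3, with -0.99 and an adjusted p of 0.0409, passed the threshold. Within the number series the log2 differences were -0.15, -1.48 and -0.60, the first of which includes that library. The diet effect on Psmb8 in LTF minus that in STF was 0.27 (SE 0.45, unadjusted p = 0.552 for the interaction in edgeR).

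Psmb9 encodes the immunoproteasome subunit that takes the place of the Psmb6 product. In STF it ranged from 0 to 74.4 CPM on RFD with a median of 42.5, and from 15.6 to 75.0 CPM on HFD with a median of 24.6. Although 9 of 11 HFD libraries lay below the RFD median, the groups overlapped over nearly their whole range, and the value of 0 belonged to RFD mouse 40, the shallowest library. The log2 fold change was -0.50 ± 0.32 (SE, edgeR adjusted p = 0.425). Within the number series the STF differences were -1.35, 1.38 and 0.01, so the direction did not hold in each, and the second series contains mouse 40. In LTF, Psmb9 ranged from 46.7 to 184.5 CPM on RFD with a median of 96.8, and from 30.5 to 100.5 CPM on HFD with a median of 49.1. Here 11 of 12 HFD libraries lay below the RFD median and 5 lay below every RFD library. The log2 fold change was -0.77 ± 0.24 (SE, edgeR adjusted p = 0.199), and the differences within the series were -0.59, -1.25 and -0.41. Without LTF RFD mouse 3 the log2 fold change was -0.84 with an edgeR adjusted p of 0.0667. Over the 23 LTF fits without 1 library it ran from -0.87 to -0.64. The adjusted p reached 0.397 and was under 0.1 in 2 of the 23.

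Psmb10 encodes the third inducible catalytic subunit, the counterpart of Psmb7. In STF it ranged from 38.2 to 330.9 CPM on RFD with a median of 204.5, and from 84.5 to 237.0 CPM on HFD with a median of 149.5. In LTF it ranged from 153.4 to 389.6 CPM on RFD with a median of 229.2, and from 138.7 to 259.8 CPM on HFD with a median of 205.1. Most HFD libraries lay below the RFD median, 9 of 11 in STF and 9 of 12 in LTF, with wide overlap. The log2 fold changes were -0.39 (SE 0.23) and -0.36 (SE 0.16), with adjusted p of 0.387 and 0.455 in edgeR. The differences within the number series were -0.50, 0.28 and -0.42 in STF, so the direction did not hold in each, and -0.25, -0.63 and -0.13 in LTF.

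The genes of the PA28 activator, which caps the core and promotes peptide release, showed smaller differences. Psme1, the alpha subunit gene, ranged in STF from 31.8 to 197.9 CPM on RFD (median 158.9) and from 75.7 to 146.1 CPM on HFD (median 112.2). In LTF it ranged from 167.8 to 356.7 CPM on RFD (median 223.7) and from 156.5 to 222.8 CPM on HFD (median 194.2). All 11 and all 12 HFD libraries lay below the RFD median of their set. The log2 fold changes were -0.26 (SE 0.21) and -0.31 (SE 0.15), with adjusted p of 0.532 and 0.482 in edgeR. Within the number series the Psme1 differences were -0.53, 0.58 and -0.27 in STF and -0.19, -0.62 and -0.05 in LTF. Psme2, the beta subunit gene, had medians of 167.4 CPM on RFD and 169.6 CPM on HFD in STF, and of 334.4 and 292.4 CPM in LTF, with log2 fold changes of 0.08 (SE 0.17) and -0.09 (SE 0.13). The diets overlapped almost fully for Psme2, and its STF value was below 0 without RFD mouse 40.

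**Figure D3:**
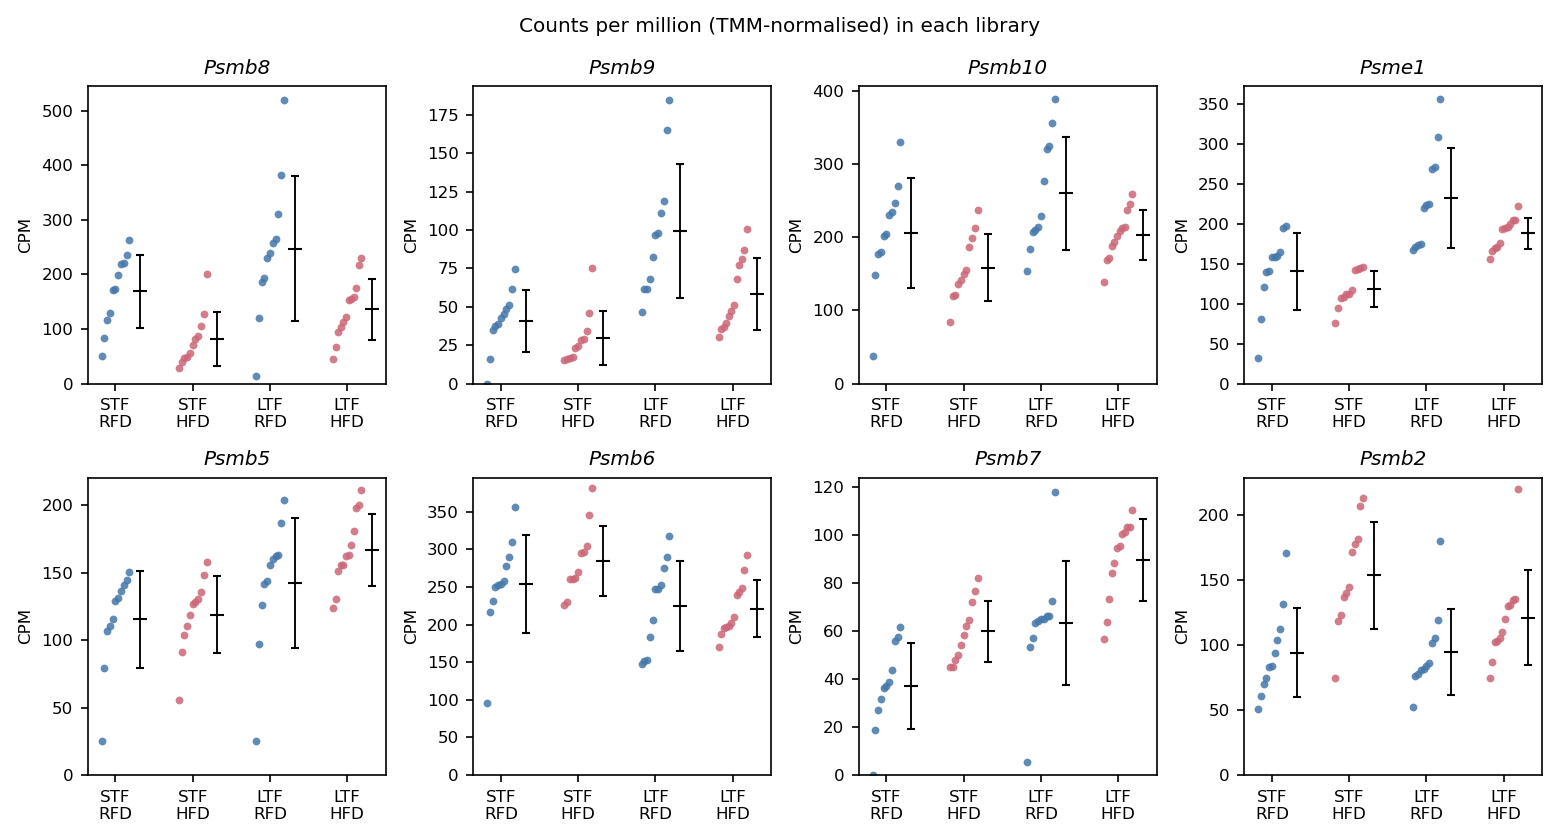
CPM (linear axis) of Psmb8, Psmb9, Psmb10, Psme1, Psmb5, Psmb6, Psmb7 and Psmb2 in every library, with 1 point for each mouse, the 4 groups side by side, and the mean with SD as a cross bar. The Psmb8 median is 174.0 CPM on RFD and 71.0 CPM on HFD in STF, and 239.3 and 137.5 CPM in LTF, with overlap between the diets in both sets.

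The 3 constitutive counterparts stood near or above 0. Psmb5, the chymotrypsin-like subunit gene, ranged in STF from 25.5 to 150.3 CPM on RFD (median 128.8) and from 55.4 to 158.2 CPM on HFD (median 126.7), and in LTF from 25.1 to 203.9 CPM (median 155.8) and from 123.9 to 211.4 CPM (median 162.9). Its log2 fold changes were 0.03 (SE 0.21) and 0.23 (SE 0.21), neither past the threshold. Psmb6, the caspase-like subunit gene, had medians of 254.5 CPM on RFD and 270.5 CPM on HFD in STF, and of 247.2 and 205.9 CPM in LTF, with log2 fold changes of 0.16 (SE 0.18) and -0.02 (SE 0.16). The values near 0 for Psmb5 in STF and Psmb6 in LTF changed sign under other settings. Psmb7, the trypsin-like subunit gene, ranged in STF from 0 to 61.9 CPM on RFD (median 37.2) and from 45.1 to 82.2 CPM on HFD (median 58.3), where all 11 HFD libraries lay above the RFD median. In LTF it ranged from 5.39 to 118.2 CPM on RFD (median 65.02) and from 56.6 to 110.5 CPM on HFD (median 95.3), with 10 of 12 HFD libraries above the RFD median. Its log2 fold changes were 0.64 (SE 0.26) and 0.50 (SE 0.25), with adjusted p of 0.191 and 0.495 in edgeR.

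Set against its counterpart within each library, every inducible subunit had a lower median ratio on HFD. These ratios are differences of log2 CPM (prior count of 2) between the 2 genes, given as a description without a test. For Psmb8 minus Psmb5 in STF, the RFD libraries ranged from -0.17 to 1.04 with a median of 0.73, and the HFD libraries from -1.90 to 0.56 with a median of -0.58. All 11 HFD libraries lay below the RFD median and 8 lay below every RFD library. In LTF the RFD libraries ranged from -0.85 to 1.47 with a median of 0.68, and the HFD libraries from -1.90 to 0.56 with a median of -0.36, with 12 of 12 below the RFD median. The mean differences between the diets were -1.24 and -0.99. Within the number series they were -1.47, -1.42 and -0.70 in STF and -0.87, -1.62 and -0.86 in LTF. Without the 3 libraries of few genes they were -1.17 and -1.13, and without the 4 libraries rich in Paneth markers -0.94 and -0.85, so the direction was the same in each.

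For Psmb10 minus Psmb7 the median was 2.40 on RFD and 1.31 on HFD in STF, and 2.09 and 1.18 in LTF, with all 11 and all 12 HFD libraries below the RFD median. The mean differences, -1.36 and -1.003, were -1.01 and -0.72 without the 3 libraries of few genes. For Psmb9 minus Psmb6 the median was -2.60 on RFD and -3.36 on HFD in STF, and -1.20 and -2.14 in LTF, with 10 of 11 and 11 of 12 HFD libraries below the RFD median. The STF mean difference of -0.38 moved to -0.70 without the 3 libraries of few genes and to 0.90 in the number series of multiples of 10, which holds RFD mouse 40, where Psmb9 had no read. For the mean of the 5 immunoproteasome and PA28 genes minus that of the 31 constitutive subunits, the median was 0.45 on RFD and -0.49 on HFD in STF, and 1.01 and 0.30 in LTF, with 10 of 11 and 12 of 12 HFD libraries below the RFD median. Its mean differences within the number series were -1.11, -0.09 and -0.58 in STF and -1.11, -0.90 and -0.53 in LTF. The second STF series holds RFD mouse 40, with the lowest RFD value of -1.08. The first LTF series holds RFD mouse 3, with the highest RFD value of 2.54. Over whole sets the mean differences were -0.71 and -0.80, and without the 3 libraries of few genes -0.78 and -0.65.

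**Figure D4:**
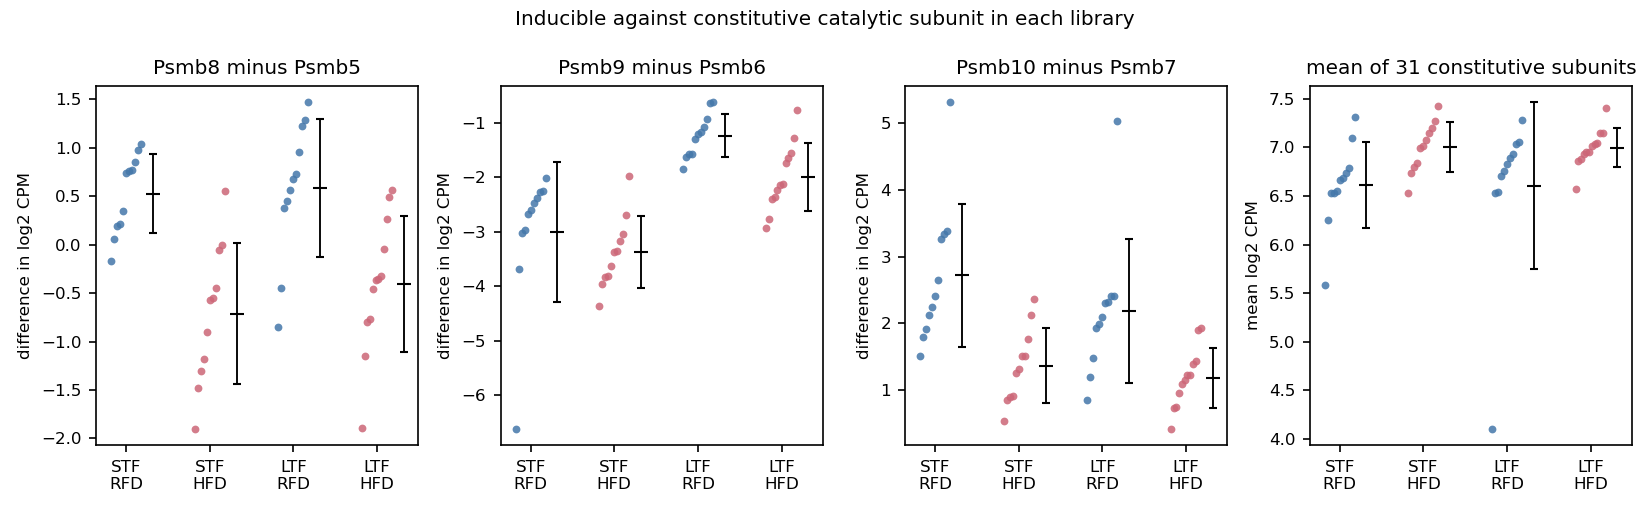
Difference of log2 CPM between inducible subunits and their constitutive counterparts in each library (y axis), and in the last panel the mean log2 CPM of the 31 constitutive subunits, with 1 point for each mouse, the 4 groups side by side, and the mean with SD as a cross bar. For Psmb8 minus Psmb5 all 11 and all 12 HFD points lie below the RFD median of their set.

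Among the other core beta subunits, Psmb2 passed the threshold. Psmb2 encodes a non-catalytic beta subunit at chr4:126677630-126709714. In STF it ranged from 50.8 to 170.7 CPM on RFD with a median of 83.6, and from 75.0 to 213.2 CPM on HFD with a median of 144.8. With 10 of 11 HFD libraries above the RFD median and 5 above every RFD library, Psmb2 rose by 0.70 on the log2 scale (SE 0.21, edgeR adjusted p = 0.0876), or 1.62-fold. The log2 differences within the number series were 0.57, 0.61 and 0.73. Its adjusted p stayed under 0.1 in 7 of 22 fits without 1 library and in 6 of 16 other settings, and was 0.129 without the libraries of few genes. In LTF it ranged from 52.0 to 179.7 CPM on RFD (median 83.5) and from 74.8 to 220.5 CPM on HFD (median 114.9), with a log2 fold change of 0.35 ± 0.19 (SE, edgeR adjusted p = 0.552). The core subunit genes Psmb1, Psmb3 and Psmb4 had log2 fold changes of 0.27, 0.23 and 0.08 in STF and of 0.27, 0.12 and 0.09 in LTF, none past the threshold.

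In the alpha ring, which forms the gate of the core, all 7 genes had log2 fold changes above 0 in both sets, with medians of 0.41 in STF and 0.26 in LTF, and with the size factors of DESeq2 all 7 were again above 0. Psma3 ranged in STF from 89.1 to 299.5 CPM on RFD (median 168.4) and from 154.7 to 534.8 CPM on HFD (median 243.9), with 10 of 11 HFD libraries above the RFD median. Its log2 fold change was 0.61 ± 0.21 (SE, edgeR adjusted p = 0.136) in STF and 0.26 ± 0.15 (SE, edgeR adjusted p = 0.563) in LTF. Psma2 ranged in LTF from 73.7 to 195.0 CPM on RFD (median 142.6) and from 133.5 to 239.7 CPM on HFD (median 188.8), with 11 of 12 HFD libraries above the RFD median and 5 above every RFD library. Its log2 fold changes were 0.39 ± 0.18 (SE, edgeR adjusted p = 0.266) in STF and 0.36 ± 0.16 (SE, edgeR adjusted p = 0.435) in LTF. Psma1 had medians of 140.1 CPM on RFD and 225.8 CPM on HFD in STF, and of 149.1 and 213.0 CPM in LTF, with log2 fold changes of 0.60 (SE 0.24) and 0.32 (SE 0.17), neither past the threshold. Psma4 and Psma5 had log2 fold changes of 0.41 and 0.46 in STF and of 0.38 and 0.12 in LTF. Psma6 and Psma7 stood closer to 0, with log2 fold changes of 0.05 and 0.12 in STF and of 0.02 and 0.01 in LTF.

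The regulatory particle leaned the same way. All 6 ATPase genes were above 0 in STF (median 0.18) and 5 of 6 in LTF (median 0.09), but with the size factors of DESeq2 the counts were 5 of 6 in STF and 6 of 6 in LTF. Psmc6, an ATPase of the base, ranged in STF from 12.7 to 124.6 CPM on RFD (median 58.7) and from 48.6 to 203.6 CPM on HFD (median 116.4), with 5 HFD libraries above every RFD library. Its log2 fold change was 0.80 ± 0.26 (SE, edgeR adjusted p = 0.113) in STF, and 0.23 ± 0.32 (SE, edgeR adjusted p = 0.862) in LTF. The other ATPase genes, Psmc1 to Psmc5, lay between 0.0009 and 0.36 in STF and between -0.02 and 0.14 in LTF. Among the 11 non-ATPase genes, 10 were above 0 in each set, with medians of 0.395 and 0.365. The lid gene Psmd12 ranged in STF from 27.1 to 96.7 CPM on RFD (median 57.2) and from 56.7 to 144.0 CPM on HFD (median 83.4), with a log2 fold change of 0.63 ± 0.21 (SE, edgeR adjusted p = 0.127). In LTF its log2 fold change was 0.47 ± 0.32 (SE, edgeR adjusted p = 0.653). The lid gene Psmd6 had medians of 55.1 CPM on RFD and 97.1 CPM on HFD in STF, where all 11 HFD libraries lay above the RFD median, and a log2 fold change of 0.65 ± 0.23 (SE, edgeR adjusted p = 0.138). Psmd1 and Psmd2, large scaffold subunits of the base, had log2 fold changes of 0.61 and 0.60 in STF and of 0.45 and 0.57 in LTF, and Psmd3, Psmd7, Psmd8, Psmd11, Psmd13 and Psmd14 lay between 0.07 and 0.40 in STF and between 0.04 and 0.37 in LTF. The exception in both sets was Psmd4, a ubiquitin receptor, with medians of 155.2 CPM on RFD and 120.1 CPM on HFD in STF and of 138.6 and 132.1 CPM in LTF. Its log2 fold changes were -0.24 (SE 0.18) and -0.12 (SE 0.15), neither past the threshold.

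The mean log2 CPM over the 31 constitutive subunits had a median of 6.66 on RFD and 7.01 on HFD in STF, and of 6.83 and 6.98 in LTF. Only 1 HFD library in each set lay below the RFD median. The mean difference between the diets was 0.39 in both sets, and without the 3 libraries of few genes it was 0.29 in STF and 0.14 in LTF. The LTF change came from leaving out RFD mouse 3, the only such library of that set, which had the lowest mean, 4.10.

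Assembly chaperones build the core and the base of the regulatory particle and leave the finished complex. Of 7, 5 were above 0 in STF and 4 in LTF. Psmg1 and Psmg2 encode the pair of chaperones on which the alpha ring forms. Psmg1 ranged in STF from 6.37 to 47.4 CPM on RFD (median 16.9) and from 16.6 to 46.8 CPM on HFD (median 35.1), and in LTF from 0 to 48.4 CPM (median 11.1) and from 15.8 to 46.6 CPM (median 26.3). The diets overlapped, with 10 of 11 and 12 of 12 HFD libraries above the RFD median, and the log2 fold changes were 0.80 ± 0.30 (SE, edgeR adjusted p = 0.159) and 0.88 ± 0.42 (SE, edgeR adjusted p = 0.47). Psmg2 ranged in STF from 0 to 25.6 CPM on RFD (median 7.04) and from 3.85 to 40.4 CPM on HFD (median 24.01), with a log2 fold change of 1.38 ± 0.48 (SE, edgeR adjusted p = 0.128). In LTF that of Psmg2 was 0.58 ± 0.43 (SE, edgeR adjusted p = 0.688). Psmg4 and Psmd9 had values below 0 in both sets, -0.45 and -0.32 for Psmg4 and -0.38 and -0.02 for Psmd9, and none passed the threshold. The chaperone genes Psmd5, Psmd10 and Psmg3 had log2 fold changes of 0.48, 0.18 and 0.32 in STF and of -0.06, 0.26 and 0.04 in LTF.

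The remaining genes did not pass the threshold in either set. Psme3 had medians of 10.0 CPM on RFD and 10.5 CPM on HFD in STF, and of 13.4 and 9.51 CPM in LTF, with log2 fold changes of -0.09 (SE 0.48) and -0.56 (SE 0.38). Psme4 had log2 fold changes of -0.36 (SE 0.36) and -0.05 (SE 0.38). Psmf1, which encodes an inhibitor of the core, had medians of 38.4 and 39.2 CPM in STF and of 39.2 and 42.9 CPM in LTF, with log2 fold changes of 0.14 (SE 0.20) and -0.19 (SE 0.26). The near copy Psme2b had medians of 13.2 and 11.7 CPM in STF and of 21.7 and 20.6 CPM in LTF, and Psmc3ip had medians of 2.33 and 3.37 CPM in STF and had 0 reads in 11 of 45 libraries.

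Genes that share the pathway but not the symbols were read from lists. Of 11 proteasome partners outside the Psm names, such as the core maturation factor Pomp and the deubiquitinase Usp14, 0 passed the threshold in either set in edgeR, and 2 in STF and 0 in LTF had an unadjusted p under 0.05. Pomp had log2 fold changes of 0.15 (SE 0.22) and 0.08 (SE 0.15), and Usp14 of 0.74 (SE 0.26) and 0.26 (SE 0.26). Of the 5 genes that control proteasome transcription through Nfe2l1 and Nfe2l2, 0 passed in edgeR, and 2 in each set had an unadjusted p under 0.05, with median log2 fold changes of 0.53 and 0.38. Among the genes of ubiquitin and its activation, Rps27a, which encodes a fusion of ubiquitin and a ribosomal protein, rose in STF from a median of 105.2 CPM to 191.3 CPM (log2 fold change 0.71 ± 0.20, SE, edgeR adjusted p = 0.0757), with all 11 HFD libraries above the RFD median. Ubb, a polyubiquitin gene, had a log2 fold change of -0.25 (SE 0.20) in STF.

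Of 15 regulators of interferon signalling and MHC class I expression, 10 were below 0 in STF and 12 in LTF, with medians of -0.85 and -0.28. Irf9, part of the transcription complex ISGF3, ranged in STF from 19.1 to 72.2 CPM on RFD (median 52.7) and from 12.2 to 46.6 CPM on HFD (median 18.8), and fell by 1.05 on the log2 scale (SE 0.26, edgeR adjusted p = 0.0565). All 11 HFD libraries lay below the RFD median. In LTF the Irf9 value was -0.71 (SE 0.37, edgeR adjusted p = 0.513), with 12 of 12 HFD libraries below the RFD median. In LTF, Irf7, an interferon-induced transcription factor, fell by 1.21 ± 0.32 (SE, edgeR adjusted p = 0.0978) from a median of 627.1 CPM to 303.2 CPM, with 12 of 12 HFD libraries below the RFD median. Irf7 in STF stood at -1.21 (SE 0.54, edgeR adjusted p = 0.241), with 10 of 11 HFD libraries below the RFD median.

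Of 9 genes of peptide loading, 0 passed in STF in edgeR, where an unadjusted p under 0.05 was seen for 3 higher and 2 lower genes, and 2 genes were lower in LTF. Tap1, the transporter gene that overlaps the start of Psmb9, ranged in LTF from 39.6 to 126.0 CPM on RFD (median 59.9) and from 15.7 to 79.5 CPM on HFD (median 30.7), and fell by 1.03 on the log2 scale (SE 0.28, edgeR adjusted p = 0.0978). B2m, the light chain of MHC class I, ranged in LTF from 702.0 to 4917 CPM on RFD (median 2116) and from 734.1 to 1870 CPM on HFD (median 950.0), and fell by 1.12 ± 0.21 (SE, edgeR adjusted p = 0.0082). In STF the log2 fold changes of Tap1 and B2m were -0.91 (SE 0.44) and -0.57 (SE 0.23), neither past the threshold. The chaperone genes of the endoplasmic reticulum Canx, Calr and Pdia3 had values above 0 in both sets, from 0.34 for Calr in LTF to 0.81 for Canx in STF, and none passed the threshold.

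Markers of other cells moved with the same comparisons. In STF the summed tuft markers had a median of 13358 CPM on RFD and 5860 CPM on HFD, with 13 of 14 markers below 0, and in LTF 17832 and 13630 CPM, again with 13 of 14 below 0. Of the 14 lymphocyte markers listed, 10 were tested and all 10 were below 0 in both sets, with summed medians of 177 CPM on RFD and 80.1 CPM on HFD in STF and of 229 and 146 CPM in LTF. The methods of the study give CD45 as a positive marker of the sort in one place and as a marker for leaving cells out in another, so its gate is not settled. Ptprc, which encodes CD45, made up most of these sums (medians of 153 and 78.0 CPM in STF), and the T cell marker Cd3e was at 0 in 15 of 22 STF libraries and 9 of 23 LTF libraries. All 5 Paneth markers were above 0 in both sets, with summed medians of 2564 and 25979 CPM in STF and of 1589 and 11343 CPM in LTF. The Paneth sums overlapped widely, from 51.9 to 103286 CPM on RFD and from 103.8 to 582646 CPM on HFD in STF. No tuft, lymphocyte or Paneth marker passed the threshold in either set. All 5 stem and cycling markers were also above 0, with 337 and 1263 CPM in STF and 146 and 269 CPM in LTF, and 1 of them, Olfm4, passed the threshold in STF. All 6 enteroendocrine markers were below 0 in LTF, where Cck, Gcg and Nts fell in edgeR (adjusted p of 0.0062, 0.0279 and 0.000788), the summed median was 308 CPM on RFD and 12.5 CPM on HFD, and all 12 HFD libraries lay below the RFD median. In STF 3 of these 6 were below 0, with summed medians of 224 and 108 CPM. All 6 goblet markers were above 0 in both sets, with summed medians of 1609 and 2706 CPM in STF and of 1230.4 and 1873 CPM in LTF, and none passed the threshold. Of the 12 enterocyte markers, 1 was higher in STF, and in LTF Mttp and Rbp2 were higher and Slc5a1 was lower past the threshold. All 7 myeloid and eosinophil markers tested were above 0 in LTF and 2 of 7 in STF, with a summed median of 13.3 CPM on RFD in LTF that 7 of 12 HFD libraries lay below, and none passed. The part of enteroendocrine, goblet and myeloid cells in the results was not tested.

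Marker levels were also used as covariates. Each such level was the mean log2 CPM over the tested markers of a cell type, not the summed CPM given above. With the tuft level as a covariate, the log2 fold change of Psmb8 in STF was -0.55 (adjusted p = 0.444 in edgeR). With the stem and cycling level it was -0.59 (adjusted p = 0.708). With the lymphocyte level it was -1.17 (adjusted p = 0.192), and without the HFD libraries rich in Paneth markers -0.86 (adjusted p = 0.451). With the Paneth level it was -0.85 (adjusted p = 0.203), and with the enterocyte level -1.25 (adjusted p = 0.0224). Its adjusted p stayed under 0.1 in 10 of 16 other settings. In LTF the Psmb8 values were -0.45 with the tuft level and -0.48 with the lymphocyte level. For Psmb9 in STF the value was -0.02 with the tuft level and -0.13 with the stem and cycling level. Psmb2 in STF, 0.70 as reported, was 0.42 with the tuft level and 0.30 with the stem and cycling level (edgeR adjusted p of 0.604 and 0.893). Without the libraries rich in Paneth markers it was 0.50 (adjusted p = 0.556). With the lymphocyte level it was 0.66 (adjusted p = 0.33), and with the enterocyte level 0.74 (adjusted p = 0.0523). The median over the 31 constitutive subunits was 0.15 in STF and 0.05 in LTF with the stem and cycling level, and the median over the 5 immunoproteasome and PA28 genes was -0.04 and -0.26 with the tuft level. The Paneth and stem and cycling covariates were chosen after seeing the data, and all of these covariates are measured in the same libraries.

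**Figure D5:**
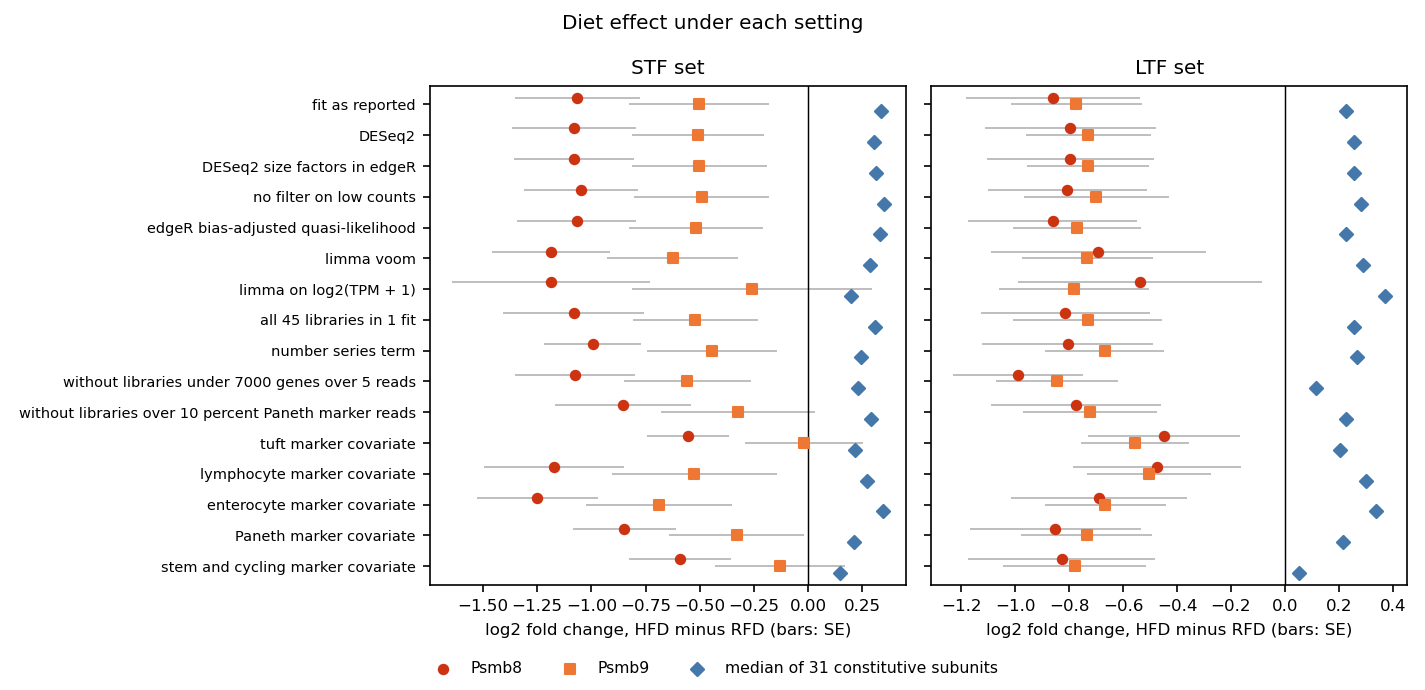
Log2 fold change of HFD minus RFD (x axis) for Psmb8 and Psmb9, with bars for the standard error, and the median over the 31 constitutive subunits, under the fit as reported and each other setting, in the STF set (left) and the LTF set (right). Psmb8 stays left of 0 in every row, from -1.25 to -0.55 in STF, and the constitutive median stays right of 0.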

How the data were processed

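Bulk libraries of sorted tuft cells were made by the authors with Smart-seq2 and Nextera XT and sequenced paired-end. Per the labels, adapters were removed with Cutadapt 1.15, reads were aligned with STAR 2.6.0 and genes were quantified with RSEM on GRCm38. The deposited expected counts, 8.79% of them not whole, were rounded, and the deposited TPM values were used for levels per length. The FPKM tables were not used. The tables also hold 24 columns of no labelled library, which were not used. The authors' SAM-seq test on counts weighed by cell type shares was not repeated. Groups came from the titles.

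Genes with more than 5 reads in at least 6 of 45 libraries were tested per set with edgeR 4.0.16 (TMM, quasi-likelihood F test with robust dispersion, R 4.3.3), with Benjamini-Hochberg adjustment over 14020 genes and an adjusted p under 0.1 as the threshold. The interaction of diet and set was fitted over all libraries. DESeq2 1.42.0, limma 3.58.1 (voom, and log2(TPM + 1)), other filters and covariates were alternatives. The procedure was tested on simulated data. Of 100 genes given an absolute log2 fold change of 1, 27% were recovered in STF and 37% in LTF. Of 100 genes given a value of 2, 88% and 92% were recovered. False calls made up 16.7% of the calls in STF and 14.6% in LTF. Python 3.11.15 and matplotlib 3.10.9 were used for summaries and plots.

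Genes, lists and tests were chosen with earlier results of these data known. Full values are given for the 5 immunoproteasome and PA28 genes, for Psmb5, Psmb6 and Psmb7, and for every other member with an adjusted p under 0.1, or the 5 of smallest p where fewer passed. Psmd6 and Psmd4 were added after their values were seen, and the other members are given by log2 fold change, median or range. Pathway genes are named where they passed the threshold, but results for some of them and for 1 promoter pattern that was searched are not reported here, and Pomp, Usp14, Ubb, Canx, Calr and Pdia3 were added as examples after their values were seen. Promoter sequences are from RefSeq (GRCm38.p6), where 41 of the members matched. The total of 189340 to 4690213 reads per library sets the precision, so genes near 0 in the shallowest libraries are uncertain. Numbers in the titles shared by STF and LTF belong to different mice, and across the 16 shared numbers the correlation of deviations ran from -0.384 to 0.383, with 2 over 0.1, so they were not treated as pairs.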

Additional observations from a re-analysis of the deposited data

How the results depend on the processing

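The number of members past the threshold in STF, 2 as reported, depended on the test and on single libraries. It was 11 with limma voom and 8 each with DESeq2, with the bias-adjusted quasi-likelihood fit of edgeR and with the enterocyte marker covariate. It was 1 each with a term for the number series, without libraries under 500000 reads and without libraries under 7000 genes over 5 reads. It was 0 each with limma on log2(TPM + 1), with an adjusted p under 0.05, with the tuft, lymphocyte, Paneth or stem and cycling marker covariate, and without libraries over 10% Paneth marker reads. Leaving out 1 library gave 0 to 14, with 14 without RFD mouse 20, 11 without HFD mouse 64 and 6 without HFD mouse 63. In LTF, 0 as reported, the number was 1 with DESeq2 and 2 without libraries under 7000 genes, and leaving out 1 library gave 0 to 4, with 4 without RFD mouse 1 (Psma1, Psma2 and Psmg1 higher, Psmb9 lower) and 2 without RFD mouse 3 (Psmb8 and Psmb9 lower). The interaction gave 0 in every setting, also with the replicate block (0), and the numbers in the titles do not pair mice. The settings by genes per library, Paneth reads, Paneth and stem markers and the bias-adjusted fit were chosen after seeing the data. The direction of the constitutive median and of the immunoproteasome and PA28 median held in every setting, with ranges of 0.149 to 0.352 and -0.439 to -0.036 in STF and of 0.053 to 0.372 and -0.385 to -0.261 in LTF.

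Log2 values near 0 changed sign, and the cause was not tested. Over the fits without 1 library, Psme2 in STF ran from -0.0031 (without RFD mouse 40) to 0.136, Psmb5 in STF from -0.087 to 0.076, and Psmb6 in LTF from -0.071 to 0.065. Psmb5 in STF was -0.016 with DESeq2, -0.059 with limma on TPM, -0.023 with voom, -0.013 without libraries under 500000 reads or under 7000 genes, -0.057 with the lymphocyte covariate and -0.055 without libraries rich in Paneth reads. Psmb6 in LTF was 0.0038 with DESeq2, 0.0069 with its size factors, 0.038 without a filter, 0.020 on TPM, 0.014 with the number series, 0.021, 0.011 and 0.041 with the tuft, lymphocyte and enterocyte covariates, and 0.0066 in the fit of all 45 libraries. For the interaction, Psmb9 was 0.13 with the enterocyte covariate and 0.30 with the replicate block. Psmb10 was -0.12 with the tuft covariate and -0.042 without libraries rich in Paneth reads. Psme1 was -0.028 with DESeq2, -0.063 with its size factors, -0.056 with the number series, -0.13 with the tuft covariate, -0.024 without libraries rich in Paneth reads and -0.036 with the Paneth covariate. Psmb7 was 0.023 with the enterocyte and 0.028 with the Paneth covariate. Psmd12 was 0.39 on TPM, 0.018 with voom and 0.029 with the Paneth covariate. Psma2 was -0.036 with DESeq2, -0.022 with its size factors, -0.017 without a filter, -0.035 without libraries under 500000 reads, -0.10 without those under 7000 genes, -0.040 without those rich in Paneth reads and -0.056 with the replicate block.

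Depth limits STF RFD mouse 40, the shallowest library. LTF RFD mouse 3 had more reads than 2 other LTF libraries, yet no read of Psmd2, Psmc6 or Psmd14, whose RFD medians in LTF were 100.5, 77.6 and 74.2 CPM.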
